A study of Mus musculus with 9 samples.

Results

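The Nr4a nuclear receptors are 3 genes, Nr4a1, Nr4a2 and Nr4a3, of 55487 gene IDs in each deposited table. They were found by their symbols, and all 3 passed the filter on low counts that left 18341 genes for testing. RNA was sequenced from monocytes sorted from the spleens of untreated C57BL/6 mice, in 3 groups of 3 libraries. The groups were Ly6Clo monocytes of mice homozygous for loss of the +37 element of Cebpa (Cebpa +37-/-, called KO), Ly6Clo monocytes of wild-type (WT) mice, and Ly6Chi monocytes of WT mice. Ages are not given in the sources used here, and no KO Ly6Chi library was analysed here. Whether the 3 replicates of a group are 3 mice or repeats of the same material is not stated, so the p-values cover variation from library to library, part of which may be technical.

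NR4A proteins are orphan nuclear receptors that bind DNA without a known physiological ligand, so the amount of RNA and protein largely sets their activity. Nr4a1 encodes Nur77, Nr4a2 encodes Nurr1 and Nr4a3 encodes Nor1, and all are immediate early genes whose transcription starts within minutes of many stimuli through CREB, MEF2 and SRF. Nur77 is known in the mouse for its role in Ly6Clo monocytes, the nonclassical subset that patrols vessels, which are scarce in mice that lack it. Ly6Chi monocytes, the classical subset, are recruited to inflamed tissue and can turn into Ly6Clo monocytes.

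CREB binds the sequence TGACGTCA and, more weakly, its core site TGACG or CGTCA. The promoters are shown because the members share this core site. Each line gives the 250 bases before the RefSeq start, 5′ to 3′ on the strand of the gene, with core sites in capitals, from RefSeq windows on build GRCm38.p6 (Nr4a1 chr15:101266596-101266845 plus strand, Nr4a2 chr2:57124004-57124253 minus strand, Nr4a3 chr4:48045055-48045304 plus strand).
Nr4a1: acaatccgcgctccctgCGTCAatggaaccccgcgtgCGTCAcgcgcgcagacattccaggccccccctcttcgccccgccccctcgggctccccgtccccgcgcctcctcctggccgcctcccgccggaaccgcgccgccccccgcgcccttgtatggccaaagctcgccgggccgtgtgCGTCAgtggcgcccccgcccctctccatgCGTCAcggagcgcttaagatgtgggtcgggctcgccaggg
Nr4a2: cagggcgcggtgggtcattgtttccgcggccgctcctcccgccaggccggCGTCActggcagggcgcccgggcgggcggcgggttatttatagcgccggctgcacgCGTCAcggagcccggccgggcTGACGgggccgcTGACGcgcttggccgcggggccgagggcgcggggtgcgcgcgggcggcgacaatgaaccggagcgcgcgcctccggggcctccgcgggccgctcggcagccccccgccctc
Nr4a3: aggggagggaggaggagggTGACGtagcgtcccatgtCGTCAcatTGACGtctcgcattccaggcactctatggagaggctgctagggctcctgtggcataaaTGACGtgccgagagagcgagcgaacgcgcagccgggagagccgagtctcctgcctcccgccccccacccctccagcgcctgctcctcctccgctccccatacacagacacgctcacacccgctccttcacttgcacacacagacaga
Each of the 3 windows held 4 core sites, counted on both strands. In Nr4a1 they began 233, 213, 69 and 40 bases before the start, in Nr4a2 200, 144, 123 and 111 bases before it, and in Nr4a3 231, 213, 205 and 147 bases before it. Of 32851 RefSeq promoter windows of 300 bases (250 before the start and 50 after it), 20.8% held at least 1 core site and 0.231% held 4 or more. The core site contains a CG, and the full windows of the members were rich in G and C, at 72.3%, 81.7% and 64.7%, against a median of 52.7% over all windows. No window of a member held the full CRE TGACGTCA (1.79% of all windows did) or the NR4A monomer site AAAGGTCA (1.51%). None held a serum response CArG box in the strict form of CC, 6 of A or T, and GG (1.63%). Sites that differ from these letters by a base were not searched for. The windows of all 27025 symbols were searched alike, and a match is only a description of these letters. Nr4a1 is annotated in the deposited tables on chromosome 15 from 101254269 to 101274795, so its RefSeq start lies inside that gene model. Nr4a2 spans 57106830 to 57124003 on chromosome 2 and Nr4a3 spans 48045153 to 48086447 on chromosome 4, which begins within the printed window. No other gene ID overlapped a member.

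Library totals ran from 48141590 to 173703361 counts, and replicate number 2 of each Ly6Clo group was the deepest of its group. Levels below are CPM (read counts scaled to a common library total) on TMM-scaled library sizes unless TPM, which corrects for gene length, is named. Cebpa stood at 4.04, 2.89 and 2.74 CPM in KO Ly6Clo, 18.2, 17.7 and 19.2 CPM in WT Ly6Clo, against 31.5, 51.3 and 51.6 CPM in WT Ly6Chi, so the libraries labelled KO held the least. The sorted subsets carried their defining markers: Ly6c2 averaged 2.94 ± 0.855 CPM in KO Ly6Clo, 3.93 ± 1.58 CPM in WT Ly6Clo, against 946 ± 104 CPM in WT Ly6Chi (SD, n = 3 each). Replicate number 3 of WT Ly6Chi stood apart by its sex-linked genes, with Xist at 30.04 CPM against at most 0.0417 CPM in the others and Ddx3y at 0 CPM against 69.4 CPM or more. That library was therefore no repeat of the material of WT Ly6Chi replicates 1 and 2. The library numbers of the tables fall into 2 runs of 5 and 4 libraries, and all 3 replicates numbered 1 were in the first. A run here is only a grouping by these numbers. What the numbers mark is unknown, so a run need not be a sequencing batch.

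Nr4a1 was among the most abundant RNAs of Ly6Clo monocytes. KO Ly6Clo libraries held 1638, 6262 and 5592 CPM in replicates 1 to 3, WT Ly6Clo libraries 2457.5, 11134 and 5537 CPM, and WT Ly6Chi libraries 322 (replicate 1), 2627 and 2785 CPM. These values rest on 18022 to 1679764 counts per library. Replicate number 1 was the lowest of each group, and the ranges of the 3 groups overlapped. By TPM, Nr4a1 was the 69th, 12th and 8th most abundant gene ID in KO Ly6Clo, the 34th, 4th and 13th in WT Ly6Clo, against the 535th, 25th and 25th in WT Ly6Chi.

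Nr4a2 was far lower per unit of length, at 0.273 to 57.2 TPM over the 9 libraries. It had 1.55, 71.0 and 15.1 CPM in KO Ly6Clo, 1.89, 81.05 and 16.1 CPM in WT Ly6Clo, against 0.358, 24.2 and 28.6 CPM in WT Ly6Chi, from 20 to 12228 counts. The highest library of a group exceeded the lowest by 45.7-fold in KO Ly6Clo, 42.9-fold in WT Ly6Clo and 80.0-fold in WT Ly6Chi. Libraries of the same replicate number held similar levels in KO and WT Ly6Clo, and the groups overlapped.

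Nr4a3 was the lowest member, at 0 to 1.72 TPM. It had 0.109, 3.205 and 0.246 CPM in KO Ly6Clo, 0.183, 2.86 and 0.649 CPM in WT Ly6Clo, against 0, 1.04 and 0.858 CPM in WT Ly6Chi, from 0 to 457 counts. The count of 0 in WT Ly6Chi replicate 1 allows a level of up to 0.0536 CPM (3 counts, counting error only). Only the replicates numbered 2 of the Ly6Clo groups were above 2 CPM, and the groups overlapped.

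**Figure D1:**
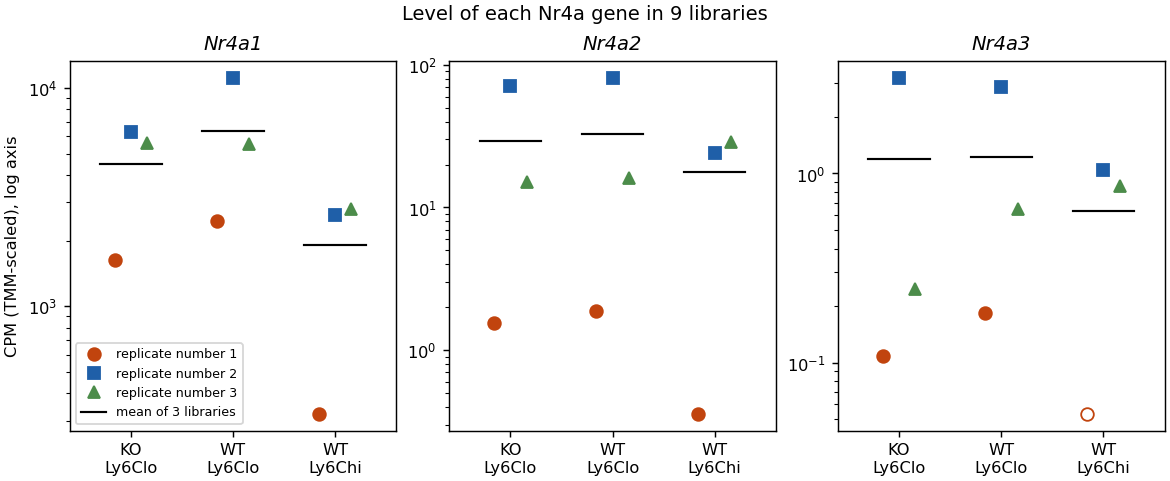
CPM of Nr4a1, Nr4a2 and Nr4a3 (log axes) in 9 libraries, with KO Ly6Clo, WT Ly6Clo and WT Ly6Chi from left to right, a symbol for each replicate number and a bar at the mean of 3. The circles of replicate number 1 lie lowest in each group of each panel, and the open circle marks a count of 0 drawn at 3 counts.

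The order of the groups by mean was WT Ly6Clo, KO Ly6Clo, WT Ly6Chi for all 3 genes, and no neighbours in that order differed beyond their spread. Nr4a1 averaged 4497 ± 2499 CPM in KO Ly6Clo, 6376 ± 4399 CPM in WT Ly6Clo, against 1911 ± 1379 CPM in WT Ly6Chi (SD, n = 3 each). Nr4a2 averaged 29.2 ± 36.8, 33.0 ± 42.2 and 17.7 ± 15.2 CPM in the groups in that same sequence, and Nr4a3 1.19 ± 1.75, 1.23 ± 1.43 and 0.634 ± 0.556 CPM. For Nr4a2 and Nr4a3 in the Ly6Clo groups, the SD was larger than the mean. The medians did not keep the order of the means for any of the 3 genes. For Nr4a1 they were 5592, 5537 and 2627 CPM in KO Ly6Clo, WT Ly6Clo and WT Ly6Chi. In the same sequence they were 15.1, 16.1 and 24.2 CPM for Nr4a2, and 0.246, 0.649 and 0.858 CPM for Nr4a3, highest in WT Ly6Chi.

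The first comparison, KO against WT Ly6Clo, asked whether loss of the Cebpa element changed these genes within Ly6Clo monocytes. None of the 3 passed the test, where 0.0709% of all 18341 genes did (13 genes). With edgeR the log2 fold change of Nr4a1 was -0.50 (SE 0.81, 95% interval -2.33 to 1.32, adjusted p = 0.9998), that of Nr4a2 -0.18 (SE 1.60, interval -3.80 to 3.45) and that of Nr4a3 -0.05 (SE 1.64, interval -3.76 to 3.66). No member had an unadjusted p under 0.05, as 6.16% of all genes had, and DESeq2 and limma-voom also called 0 of 3. The intervals are wide, and the fit does not tell a difference inside them from none. The sign rested on single libraries, since without WT Ly6Clo replicate 2 the log2 fold changes were 0.19, 1.73 and 1.54 for Nr4a1, Nr4a2 and Nr4a3.

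The second comparison, WT Ly6Clo against WT Ly6Chi, asked how the subsets differ. Nr4a1 had a log2 fold change of 1.74 (SE 0.83, 95% interval -0.14 to 3.61, unadjusted p = 0.0655 by edgeR, adjusted p = 0.312). It was not called, nor were Nr4a2 at 0.90 (SE 1.62, interval -2.76 to 4.56) and Nr4a3 at 0.97 (SE 1.67, interval -2.80 to 4.73), where 3.51% of all genes were. DESeq2 and limma-voom called 0 of 3 at the adjusted threshold and each had 1 member, Nr4a1, at an unadjusted p under 0.05, which 18.2% of all genes reached by edgeR. Within the first run of library numbers, the WT Ly6Clo libraries held 2457.5 and 11134 CPM of Nr4a1 against 322 CPM in the WT Ly6Chi library. Within the second run, the WT Ly6Clo library held 5537 CPM against 2627 and 2785 CPM in WT Ly6Chi. Nr4a1 was thus higher in the Ly6Clo libraries of either run, and a fit with the run as a term gave 2.41 (SE 0.99, edgeR adjusted p = 0.262). The call changed with a term for 3 sets of library numbers, a split of the first run chosen after seeing the data, which gave 1.90 (SE 0.40, edgeR adjusted p = 0.0493).

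Nr4a2 and Nr4a3 did not keep 1 direction within the runs. In the first run Nr4a2 had 1.89 and 81.05 CPM in WT Ly6Clo against 0.358 CPM in WT Ly6Chi, but in the second 16.1 CPM in WT Ly6Clo against 24.2 and 28.6 CPM in WT Ly6Chi. Nr4a3 had 0.183 and 2.86 CPM in WT Ly6Clo against 0 CPM in WT Ly6Chi in the first run, and 0.649 CPM against 1.04 and 0.858 CPM in the second. Both genes were also lower in WT Ly6Clo by the fit without WT Ly6Clo replicate 2, at log2 fold changes of -0.98 and -0.60. Without WT Ly6Chi replicate 3, the library set apart by sex-linked genes, the log2 fold change of Nr4a1 was 2.13 (edgeR adjusted p = 0.360).

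The third comparison, KO Ly6Clo against WT Ly6Chi, shares its KO libraries with the first and its Ly6Chi libraries with the second. Nr4a1 had a log2 fold change of 1.23 (SE 0.82, 95% interval -0.62 to 3.08, edgeR adjusted p = 0.529), Nr4a2 one of 0.72 and Nr4a3 one of 0.91. None of the 3 was called, against 4.52% of all genes, and none had an unadjusted p under 0.05, against 16.9%. Nr4a1 was higher within either run here too, with 1638 and 6262 CPM in KO Ly6Clo against 322 CPM in WT Ly6Chi, and with 5592 CPM in KO Ly6Clo against 2627 and 2785 CPM in WT Ly6Chi. Without KO replicate 2 the fold changes of Nr4a2 and Nr4a3 turned negative, at -1.10 and -1.84.

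**Figure D2:**
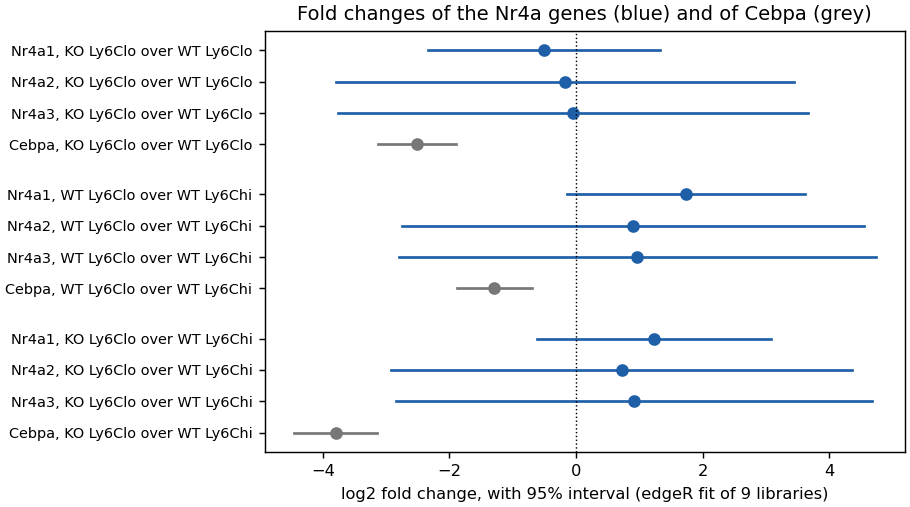
Log2 fold changes (points) with 95% intervals (lines) of the Nr4a genes and of Cebpa, from the edgeR fit of 9 libraries, by comparison. All 9 intervals of the Nr4a genes include 0, and the 3 intervals of Cebpa lie below it.

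Replicate number 1 was the lowest of its group in all 3 groups for all 3 members, which held for 11% of the 18341 genes tested (2011 genes). Replicate number 2 was the highest of both Ly6Clo groups for all 3, against 15.7% of all genes, and both orders held for all 3, against 5.13%. The spread within groups was correspondingly wide. The pooled SD of log2(CPM + 1) within groups was 1.35 for Nr4a1, larger than for 98.4% of 12858 genes with a mean of at least 1 CPM, and 2.44 for Nr4a2, larger than for 99.9%. Nr4a3 had 0.860, a value that the added 1 compresses at its level, and the median over all these genes was 0.365. The replicates numbered 1 were left out after the values had been seen, and the fit then gave Nr4a1 a log2 fold change of -0.49 for KO against WT Ly6Clo (SE 0.31, edgeR adjusted p = 0.769). It gave 1.62 for WT Ly6Clo against WT Ly6Chi (SE 0.31, edgeR adjusted p = 0.0640) and 1.14 for KO Ly6Clo against WT Ly6Chi (SE 0.31, edgeR adjusted p = 0.122). The fold changes hardly moved, and their standard errors shrank. The smaller errors follow from dropping the lowest library of each group and are no evidence of a firmer difference.

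The members held the same order by length-corrected level in every library. Nr4a1 made up 99.0 to 99.9% of the TPM of the family in all 9 libraries. Its TPM exceeded that of Nr4a2 by 1221-, 102- and 428-fold in KO Ly6Clo, 1505-, 159- and 398-fold in WT Ly6Clo and 1042-, 126- and 113-fold in WT Ly6Chi. The gap was thus widest in the replicates numbered 1, where all members were low. The ratio to Nr4a3 was 25728-, 3334- and 38826-fold in KO Ly6Clo, 22869-, 6650- and 14553-fold in WT Ly6Clo and, in WT Ly6Chi, at least 10250-fold (against 3 counts), 4297- and 5542-fold. The log2 TPM ratio of Nr4a2 to Nr4a1 averaged -8.56 ± 1.80 in KO Ly6Clo, -8.84 ± 1.63 in WT Ly6Clo and -7.94 ± 1.81 in WT Ly6Chi (SD, n = 3 each). Two-sided exact permutation tests of the 6 differences in these ratios, 3 libraries against 3, gave p from 0.2 to 0.9 (all 0.9 after adjustment), with 0.1 the smallest p the design allows. Over 9 libraries, log2(CPM + 1) of Nr4a1 and Nr4a2 had Pearson's r of 0.834 (Spearman's rho 0.85), Nr4a2 and Nr4a3 0.900 (0.967) and Nr4a1 and Nr4a3 0.697 (0.817). Without the 2 libraries farthest from the median these were 0.689, 0.881 and 0.524. The libraries share groups, runs and depth, so these values are descriptions.

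Among nuclear receptors, Nr4a1 had the highest TPM of 49 genes in all 9 libraries. It supplied 61.3, 81.7 and 80.9% of the summed nuclear receptor TPM in KO Ly6Clo, 65.1, 87.3 and 80.2% in WT Ly6Clo, against 33.2, 72.3 and 73.5% in WT Ly6Chi. The next receptor varied far less between libraries. In KO Ly6Clo, Nr4a1 averaged 4219 ± 2329 TPM, followed by Pparg, a regulator of lipid genes, at 292 ± 63.5 TPM, Rara, a retinoic acid receptor, at 258 ± 52.1 TPM, Nr1h2, the liver X receptor beta, at 224 ± 22.7 TPM and the retinoid X receptor gene Rxrb at 118 ± 7.40 TPM. In WT Ly6Clo the order was the same, from 5452 ± 3452 TPM for Nr4a1 to 323 ± 27.3 TPM for Pparg, 245 ± 30.6 TPM for Rara, 233 ± 22.3 TPM for Nr1h2 and 121 ± 15.9 TPM for Rxrb. In WT Ly6Chi it was Nr4a1 (1650 ± 1185 TPM), Rara (203 ± 64.6 TPM), Nr1h2 (163 ± 20.97 TPM), Rxrb (120 ± 11.6 TPM) and Nr3c1, the glucocorticoid receptor (52.0 ± 20.2 TPM). Nr4a2 ranked between 7th and 23rd among the 49, and Nr4a3 between 18th and 44th.

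**Figure D3:**
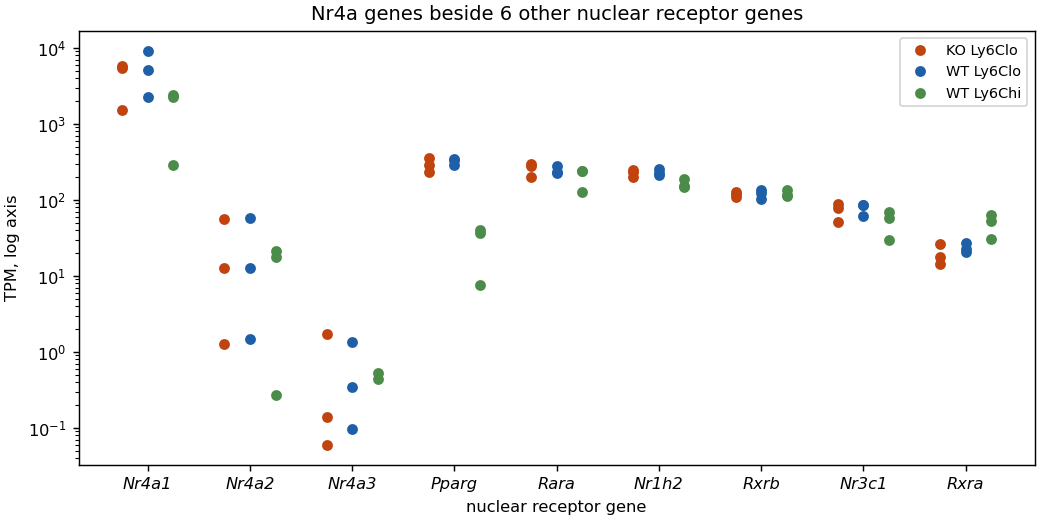
TPM (log axis) of the 3 Nr4a genes and 6 other nuclear receptor genes, each point a library, with KO Ly6Clo, WT Ly6Clo and WT Ly6Chi from left to right at each gene. Nr4a1 lies above every other receptor in its own library, and a value of 0 (Nr4a3 in 1 WT Ly6Chi library) is not drawn.

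Of 46 other nuclear receptor genes, 23 were tested. Between KO and WT Ly6Clo, Rara had a log2 fold change of -0.02 and Pparg one of -0.25. edgeR called 0 of the 23 there, against 0.0709% of all genes, and DESeq2 and limma-voom called 0. At an unadjusted p under 0.05 by edgeR there were 2 of the 23, against 6.16% of all genes. The median log2 fold change of the 23 was -0.08, against 0.03 over all genes. In WT Ly6Clo against WT Ly6Chi, 2 were higher and 0 lower, against 1.88% and 1.62% of all genes (median 0.18 against -0.00 over all genes). DESeq2 called 5 higher and 1 lower there, against 998 and 962 of all genes, and limma-voom called 2 and 0. Over 19 alternatives the count of called receptors ran from 1 to 6, and that of all called genes from 239 to 1960. Pparg averaged 311 ± 41.0 CPM in WT Ly6Clo, against 27.3 ± 17.4 CPM in WT Ly6Chi (log2 fold change 3.51, edgeR adjusted p = 0.0119), a call kept in all 19 alternatives. Pparg is also on the Ly6Clo marker list below, whose genes were chosen for this difference. Its calls against WT Ly6Chi are therefore a check of the sort. Nr1d1, a repressor of the circadian clock, averaged 8.58 ± 2.64 CPM in WT Ly6Clo, against 1.99 ± 0.134 CPM in WT Ly6Chi (2.10, edgeR adjusted p = 0.0403), and its call was lost without any 1 library except KO replicates 1 and 2 (highest adjusted p = 0.143). Part of Nr1d1 overlaps Thra on the opposite strand. Whether counting used strand is not stated, so reads of the shared part cannot be told apart. In KO Ly6Clo against WT Ly6Chi, Pparg was higher (3.26, edgeR adjusted p = 0.0112) and Rxra, the retinoid X receptor alpha, lower (-1.42, adjusted p = 0.0479), against 2.06% higher and 2.46% lower among all genes, with a median log2 fold change of 0.35 against 0.04 over all genes. The call of Rxra was kept only without KO replicate 2 or WT Ly6Chi replicate 1, of 9 libraries left out in turn. Replicate number 1 was lowest in all 3 groups for 5 of the 23, and both orders held for 1, Nr3c1.

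Of the other immediate early genes, 18 of 30 shared both orders of the replicates that the members showed. All 30 on the list were tested. Of all genes, edgeR called 0.0709, 3.51 and 4.52% in the comparisons in the order above, and 6.16, 18.2 and 16.9% had an unadjusted p under 0.05. Of the 30 it called 0 in each comparison (0, 2 and 3 at an unadjusted p under 0.05), and limma-voom called 0. DESeq2, which called 277, 1960 and 1951 of all genes, called 0, 1 and 2 of the 30. Their median log2 fold change was -0.41 for KO against WT Ly6Clo (10 of 30 above 0, against a median of 0.03 over all genes), 0.59 for WT Ly6Clo against WT Ly6Chi (23 of 30, against -0.00) and 0.48 for KO Ly6Clo against WT Ly6Chi (21 of 30, against 0.04). Replicate number 1 was lowest in all 3 groups for 26 of the 30, and number 2 was highest in both Ly6Clo groups for 21, against the shares of all genes given above.

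Fos, an AP-1 subunit, stood at 18.9, 1917 and 1776 CPM in KO Ly6Clo, 136, 3820 and 2248 CPM in WT Ly6Clo, against 328, 4352 and 4968 CPM in WT Ly6Chi. Egr1, a zinc finger factor, stood at 0.0466, 229 and 190.4 CPM in KO Ly6Clo, 0.917, 1117 and 132 CPM in WT Ly6Clo, against 4.06, 77.8 and 96.9 CPM in WT Ly6Chi. Both were lowest in replicate number 1 of each group, like the members. Fos had its highest values in WT Ly6Chi, and Egr1 was highest in 1 WT Ly6Clo library, replicate 2, followed by KO replicates 2 and 3. By mean TPM over all 9 libraries, the most abundant genes of the list were Junb, an AP-1 subunit, and Dusp1, a MAP kinase phosphatase, although in WT Ly6Chi Fos (4141 TPM) stood above Dusp1 (3270.5 TPM). Junb averaged 1628 ± 918 CPM in KO Ly6Clo, 2533 ± 2262 CPM in WT Ly6Clo, against 2738 ± 1890.0 CPM in WT Ly6Chi (SD, n = 3 each). Dusp1 averaged 2884 ± 2351, 4459 ± 3482 and 3577 ± 2903 CPM in the groups in that sequence. Without the replicates numbered 1, edgeR called Dusp5, a phosphatase of ERK, and Rgs1, a regulator of G-protein signalling, higher in WT Ly6Clo than in WT Ly6Chi (log2 fold changes 2.20 and 1.47, adjusted p = 0.0127 and 0.0370). It also called both higher in KO Ly6Clo than in WT Ly6Chi (2.37 and 1.87, adjusted p = 0.00755 and 0.0152) and Fos lower (-1.33, adjusted p = 0.0497). This fit was chosen after the values had been seen. Over the 19 alternatives, this fit among them, all called genes ran from 239 to 1960 for WT Ly6Clo against WT Ly6Chi. For KO Ly6Clo against WT Ly6Chi they ran from 379 to 1951. With all 9 libraries, the edgeR adjusted p was 0.191 and 0.190 for Dusp5, 0.656 and 0.615 for Rgs1 and 0.742 for Fos. Over 19 alternatives, Dusp5 was called in 4 each, Rgs1 in 1 and 2, and Fos in 1. Leaving out each of 9 libraries in turn gave 0 of these calls.

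**Figure D4:**
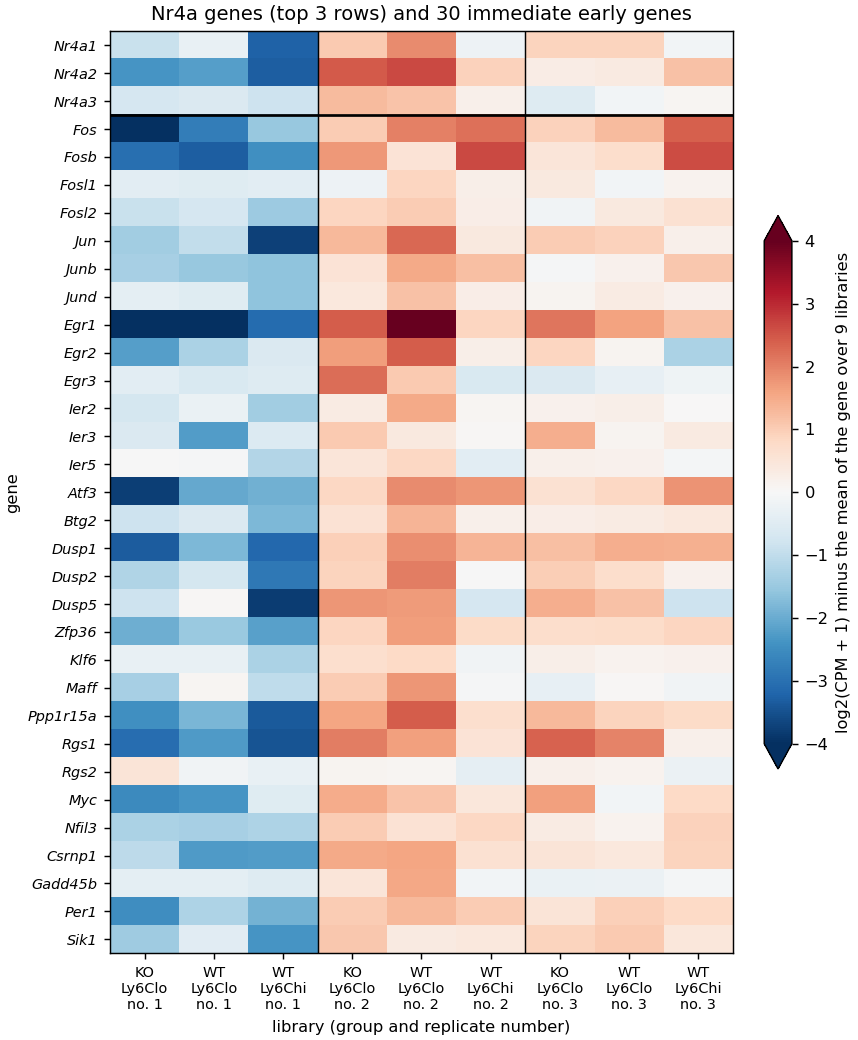
Log2(CPM + 1) minus the mean of each gene over 9 libraries, for the 3 Nr4a genes (above the line) and 30 immediate early genes, with libraries ordered by replicate number and, within it, KO Ly6Clo, WT Ly6Clo and WT Ly6Chi. The 3 columns of replicate number 1 are the lowest of their groups for the 3 members and for 26 of the 30 other genes.

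Over the 6 Ly6Clo libraries, the median Pearson's r of log2(CPM + 1) between Nr4a1 and 27 immediate early genes of at least 5 CPM was 0.942, against 0.159 over 9558 genes of that level. It was 0.922 for Nr4a2 (0.160 over all) and 0.734 for Nr4a3 (0.180 over all). For Nr4a1, 17 of the 27 exceeded 0.9, as did 5.09% of all genes. These are descriptions over 6 points that share groups, runs and depth, with the 2 replicates numbered 1 far below the rest.

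The genes whose pattern over 9 libraries was most like Nr4a1 were Nfe2l1, a factor for proteasome genes (r = 0.987), Lcp2, the adaptor SLP-76 (0.986), Dusp2, a nuclear MAP kinase phosphatase (0.983), Nr3c1 (0.981) and Sirpa, the receptor for CD47 (0.981). For Nr4a2 they were Tnfaip3, the inhibitor A20 of NF-kappa-B signalling (0.993), Fosl2, an AP-1 subunit (0.979), Ccrl2, an atypical chemokine receptor (0.977), Cdkn1a, the cell cycle inhibitor p21 (0.973), and Tmem104 (0.973). For Nr4a3 they were Rbms1, an RNA-binding protein (0.973), Nploc4, a cofactor of the p97 ATPase (0.960), Hspa2 of the HSP70 family, Zfp703 (both 0.958) and Eml4, a microtubule protein (0.947). Without the replicates numbered 2 of the Ly6Clo groups, the highest in Nr4a3, these values were 0.909, 0.844, 0.953, 0.971 and 0.835. The genes named here were picked for the highest r, so the values are descriptions. Tnfaip3, the nearest to Nr4a2, stood at 55.6, 599 and 304 CPM in KO Ly6Clo, 72.3, 802 and 279.9 CPM in WT Ly6Clo, against 35.2, 313 and 373 CPM in WT Ly6Chi. The replicates numbered 1 were lowest and those numbered 2 highest in the Ly6Clo groups. Over the 6 Ly6Clo libraries alone, the 5 nearest to Nr4a1 included Abtb2 (0.997), Pex14, a peroxisomal import protein, Ly6d and Jun, an AP-1 subunit (0.995). The nearest to Nr4a2 were Tmed5 (0.999), Acap1, Smap1, Satb1, a chromatin organiser, and Lat, an adaptor of T cell receptor signalling (0.995). The 5 nearest to Nr4a3 included Phf12 (0.993), Mbnl1, a splicing factor, Nploc4 and Smarcc2, a chromatin remodelling subunit (0.988). Without both replicates numbered 2, these named genes had 0.938, 0.913, 0.922 and 0.894.

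Of the factors known to act on Nr4a1 in mouse monocytes, Klf2, Klf4, Cebpb and Cebpa were listed. Cebpa was lower in all 3 comparisons, with log2 fold changes of -2.51 for KO against WT Ly6Clo (edgeR adjusted p = 0.0152), -1.29 for WT Ly6Clo against WT Ly6Chi (adjusted p = 0.0323) and -3.80 for KO Ly6Clo against WT Ly6Chi (adjusted p = 0.000313). Of the 9 libraries left out in turn, the first of these calls held in 3, the second in 3 and the third in 9. Cebpb, which encodes C/EBP-beta, averaged 1195 ± 199 CPM in KO Ly6Clo, 1672 ± 692 CPM in WT Ly6Clo, against 798 ± 90.6 CPM in WT Ly6Chi (SD, n = 3 each). Its libraries did not overlap between WT Ly6Clo and WT Ly6Chi, as held for 28.3% of all genes, and it was not called there (log2 fold change 1.07, edgeR adjusted p = 0.0710). Beside Cebpa, DESeq2 called 1 gene of the list, higher, in that comparison (998 of all genes were called higher by it) and limma-voom 0. Klf2, a flow-responsive factor, averaged 1544 ± 432 CPM in KO Ly6Clo, 1428 ± 198 CPM in WT Ly6Clo, against 794 ± 312 CPM in WT Ly6Chi and was not called either (0.85 for WT Ly6Clo against WT Ly6Chi, edgeR adjusted p = 0.212). Klf4, a factor of monocyte differentiation, was at 136 ± 42.2, 136 ± 24.4 and 80.4 ± 47.2 CPM in the groups in that sequence. The median log2 fold changes of the list were -0.24, 0.80 and 0.67 in the order of the comparisons above.

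The regulators through which immediate early genes are induced were 20 genes of the CREB, MEF2 and SRF systems, all tested. Between KO and WT Ly6Clo, Nfatc1 had a log2 fold change of -0.05 and Mef2d one of 0.00. There edgeR called 0, against 0.0709% of all genes (0 at an unadjusted p under 0.05, against 6.16%). It called 0 between WT Ly6Clo and WT Ly6Chi (4 of 20 at an unadjusted p under 0.05, near the 18.2% of all genes, with 1 called by DESeq2 and 1 by limma-voom, against 3.51% of all genes called by edgeR), with Nfatc1 at 0.66 and Mef2d at 0.88. It called 1, Nfatc3, a calcium-responsive factor, higher in KO Ly6Clo than in WT Ly6Chi, against 2.06% of all genes higher (1.46, edgeR adjusted p = 0.0452), a call kept without WT Ly6Chi replicate 1 but lost without any of the other 8 libraries (highest adjusted p = 0.140). Median log2 fold changes of the list were -0.07, 0.48 and 0.30 in the order of the comparisons, against 0.03, -0.00 and 0.04 over all genes. Replicate number 1 was lowest in all 3 groups for 10 of the 20.

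Of 11 genes known from other cells to depend on NR4A receptors, 10 were tested. Compared with WT Ly6Chi, edgeR called 2 higher in KO Ly6Clo and 2 in WT Ly6Clo, against 2.06% and 1.88% of all genes. Havcr2, the checkpoint receptor TIM-3, averaged 255 ± 59.0 CPM in KO Ly6Clo, 250.7 ± 34.7 CPM in WT Ly6Clo, against 68.1 ± 23.5 CPM in WT Ly6Chi, and was higher in both Ly6Clo groups than in WT Ly6Chi (log2 fold changes 1.91 for KO and 1.88 for WT, edgeR adjusted p = 0.00863 and 0.0123). Bcl2, an inhibitor of apoptosis, averaged 108 ± 23.5 CPM in KO Ly6Clo, 125.5 ± 8.77 CPM in WT Ly6Clo, against 29.1 ± 16.5 CPM in WT Ly6Chi, and was called in the same comparisons (1.89 and 2.11, edgeR adjusted p = 0.0261 and 0.0210). The calls of Havcr2 held without any 1 of the 9 libraries. Those of Bcl2 were lost without 4 of them each (highest adjusted p = 0.115 for KO and 0.0922 for WT), WT Ly6Chi replicate 2 and WT Ly6Clo replicate 3 among them in both. Between KO and WT Ly6Clo, edgeR called 0 of the 10, against 0.0709% of all genes, and 0 had an unadjusted p under 0.05, against 6.16%. DESeq2 and limma-voom also called 0, and the log2 fold changes were 0.03 for Havcr2 and -0.21 for Bcl2. Neither gene followed the order of the replicates that the members showed, which held for 1 of the 10, Pdcd1.

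The Ly6Clo marker list held 10 genes beside Nr4a1. Of these, 7 were higher in WT Ly6Clo and 7 in KO Ly6Clo than in WT Ly6Chi by edgeR, against 1.88% and 2.06% of all genes. Ace, Itgal and Cx3cr1 were not called. Between KO and WT Ly6Clo 0 were called, against 0.0709% of all genes (1 at an unadjusted p under 0.05, against 6.16%, and 0 called by DESeq2 or limma-voom). Their median log2 fold change there was -0.31 (9 of 10 below 0), against 0.03 over all genes. The 10 genes summed to 8240 to 9631 CPM in KO Ly6Clo, against 10722 to 11476 CPM in WT Ly6Clo. Treml4, a receptor of the Ly6Clo subset, averaged 1195 ± 22.3 CPM in KO Ly6Clo, 1645 ± 201 CPM in WT Ly6Clo, against 298 ± 132 CPM in WT Ly6Chi. Its log2 fold change was 2.47 for WT Ly6Clo against WT Ly6Chi, with an SE of 0.33 against 0.83 for Nr4a1 (edgeR adjusted p = 0.00575). The point estimate of Nr4a1, 1.74, lay below the median of the 10, which was 2.20. The members of the marker list were chosen for this difference, so their calls are a check of the sort and no result.

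Markers of other cell types also differed between replicate numbers. Summed over 5 T cell genes, the libraries held 25.95 to 125 CPM in KO Ly6Clo, 45.75 to 142 CPM in WT Ly6Clo, against 75.8 to 131.5 CPM in WT Ly6Chi, with all 5 genes lowest in replicate number 1 of each group. Summed over 4 NK cell genes they held 8.24 to 233 CPM in KO Ly6Clo, 39.2 to 176 CPM in WT Ly6Clo, against 11.1 to 41.6 CPM in WT Ly6Chi, again with all 4 lowest in number 1 and highest in number 2 of the Ly6Clo groups. No T cell gene was at 0 in any library, and 1 NK cell gene was at 0 in KO replicate 1. The 6 erythroid genes summed to 1.23 to 7545.5 CPM in KO Ly6Clo, 404.5 to 3344 CPM in WT Ly6Clo, against 133 to 226 CPM in WT Ly6Chi. The part of such cells in the pattern of Nr4a1, Nr4a2 and Nr4a3 was not tested, and in sorted bulk RNA fewer cells of a type and less RNA per cell cannot be told apart. For the 10 heat shock genes, number 1 was lowest in all 3 groups for 0 and number 2 highest in both Ly6Clo groups for 3, Hspa1a, Hspa1b and Dnajb1, and their sum was 2803, 2696 and 2027 CPM in KO Ly6Clo, 2632, 2902 and 2039 CPM in WT Ly6Clo, against 1418, 1812 and 1972 CPM in WT Ly6Chi. Of these 10, 1 was called in KO Ly6Clo against WT Ly6Chi (4.52% of all genes were), 1 in WT Ly6Clo against WT Ly6Chi (3.51%) and 0 between KO and WT Ly6Clo (0.0709%). In that last comparison 0 had an unadjusted p under 0.05 by edgeR, and DESeq2 and limma-voom called 0. Hsp90ab1, a cytosolic chaperone, had log2 fold changes of 0.79 in both comparisons with WT Ly6Chi (edgeR adjusted p = 0.0281 for KO Ly6Clo and 0.0328 for WT Ly6Clo), and each call was lost in 7 of 9 libraries left out.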

How the data were processed

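RNA from 40000 to 50000 sorted cells per library was amplified with the SMARTer Ultra Low kit, from 10 ng of total RNA over 12 to 15 cycles of PCR, and read from both ends for 150 bases, per the labels' protocols. The authors deposited whole-number counts of reads per gene, as the file headers show, and per the submitters' processing notes STAR 2.5.1a, featureCounts 1.4.6-p5 and Salmon 0.8.2 were used on mouse build GRCm38. The deposited files also hold TPM, which equals the count over the gene length given per the file headers, rescaled to the library, and levels between genes use it; CPM was computed here from the counts. The use of strand and the treatment of reads with several matches are not given in the sources used here. PCR duplicates carry no molecular identifiers, so floors cover counting error only.

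Of 55487 gene IDs, 55141 were given a symbol from an Ensembl gene name table or, failing that, GENCODE M21. In R 4.3.3, edgeR 4.0.16 fitted the 18341 genes kept by filterByExpr (minimum count 10) in all 9 libraries, with TMM scaling, 1 term per group, the quasi-likelihood test and Benjamini-Hochberg adjustment over all genes tested, and a gene was called at an adjusted p under 0.05. The script was tested on simulated data. DESeq2 1.42.0 and limma-voom (limma 3.58.1) were alternatives, as were other scalings and filters and leaving out each library, and 2 more were chosen after seeing the data. Named genes were the members, Cebpa, the 5 genes nearest to each member by r (mean of at least 5 CPM, without predicted genes, pseudogenes and receptor segments), the 5 receptors of highest TPM per group and, per list, up to 4 called genes or the 2 of highest TPM where none was called. Fos, Egr1, Dusp5, Rgs1, Xist and Ddx3y were chosen after their values were seen. Of the genes nearest to the members, 2 are not reported here. The members and the gene lists were chosen with earlier results of these data known. The deposited tables held 0 columns of other series.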

Additional observations from a re-analysis of the deposited data

How the results depend on the processing

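Over 19 alternatives no member was called between KO and WT Ly6Clo or between KO Ly6Clo and WT Ly6Chi, whereas Nr4a1 was called higher in WT Ly6Clo than in WT Ly6Chi with the replicate block (log2 fold change 1.98, SE 0.35, edgeR adjusted p = 0.0279) and with a term for 3 sets of library numbers added after seeing the data (1.90, SE 0.40, adjusted p = 0.0493). The labels do not say what a replicate number marks. In number 3, the WT Ly6Chi library held 30.04 CPM of Xist and the WT Ly6Clo library 0.0191 CPM, with Ddx3y at 0 and 138 CPM. These libraries were thus not from the same mice, so the block is no pairing by mouse there. The libraries numbered 2 fell in both runs. The deviations of same-numbered libraries correlated positively in all 9 pairs, at 0.198 to 0.277 for number 1 but at 0.0048 to 0.048 for number 3, and KO replicate 3 was nearest to WT Ly6Clo replicate 2. The replicate block called 13, 949 and 977 genes in the 3 comparisons, against 13, 643 and 829 without it, and 0, 3 and 1 immediate early genes, against 0 in each. Between KO and WT Ly6Clo the count of 13 became 27 with a filter of 1 CPM, 54 with no filter, 277 with DESeq2, 2 without the replicates numbered 1 and 0 with only both groups fitted by edgeR (859 at an unadjusted p under 0.05). Against WT Ly6Chi, DESeq2 called 1951 genes in KO Ly6Clo and 1960 in WT Ly6Clo. Nr4a3 turned to -0.23 in KO Ly6Clo against WT Ly6Chi with the 3 sets, and its log2 ratio to Nr4a1 to 0.34 for KO against WT Ly6Clo with 1 TPM added. The causes were not tested.

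Leaving out each library in turn gave log2 fold changes, in the order in which the comparisons were given above, of -0.91 to 0.19, 1.07 to 2.15 and 0.73 to 1.63 for Nr4a1. They were -2.03 to 1.73, -0.98 to 1.49 and -1.10 to 1.29 for Nr4a2, and -2.83 to 1.54, -0.60 to 1.54 and -1.84 to 1.49 for Nr4a3. Counts of called genes were 2 to 21, 239 to 847 and 379 to 818. The log2 ratio to Nr4a1 differed by -0.66 to 1.13, -1.94 to -0.04 and -1.66 to 0.23 for Nr4a2 and by -1.28 to 0.49, -1.55 to -0.65 and -2.34 to -0.57 for Nr4a3. Nr4a2 turned for KO against WT Ly6Clo to 0.36 without KO replicate 1 and 0.12 without KO replicate 3, and Nr4a3 to 0.47 and 0.42. Their ratios to Nr4a1 turned to -0.58 without WT Ly6Clo replicate 1 (Nr4a2) and to 0.20 without KO replicate 1 and 0.29 without WT Ly6Clo replicate 2 (Nr4a3). Nr4a3 rested on 7 to 457 counts in the libraries where it was seen.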

Other observations

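Both orders of the replicates that the members showed held for 4 of 5 T cell genes and 4 of 4 NK cell genes. The 5 B cell genes summed to 141 to 550 CPM in KO Ly6Clo, 488 to 702 CPM in WT Ly6Clo and, in WT Ly6Chi, 403 to 611 CPM, and 2 of the 5 followed both orders of the replicates. The 5 red pulp macrophage genes summed to 560.0 to 701.5 CPM in KO Ly6Clo, 569.9 to 739 CPM in WT Ly6Clo and, in WT Ly6Chi, 361 to 439 CPM, and 0 of the 5 followed both orders. The same count was 0 of 6 neutrophil genes, 2 of 6 conventional dendritic cell genes, 1 of 4 plasmacytoid dendritic cell genes, 0 of 4 platelet genes, 0 of 8 Ly6Chi monocyte genes and 3 of 10 Ly6Clo monocyte genes (Ace, Itgal and Cd9). It was 0 of 6 erythroid genes, of which 5 were highest in replicate number 2 of both Ly6Clo groups.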
